A study of Sus scrofa with 23 samples.

Results

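Low and high residual feed intake (RFI) lines of pigs were compared at 115 kg body weight in Longissimus, a long muscle along the spine, with both lines fed freely. The members were 15 of the 23 arrays of the series, 7 from low-RFI pigs (RFIneg) and 8 from high-RFI pigs (RFIpl), chosen by their titles. Another group of 8 high-RFI pigs (RFIplR) was held to the feeding level of the low line, and here it shares the estimate of the spread and is otherwise only described. Each pig gave 1 array, a single-colour Agilent design for the pig, and the labels give no breed, sex or age. The labels name no engineered allele and no other treatment. Frozen whole muscle was used, so fewer cells of a type and less RNA per cell cannot be told apart in any difference given here.

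Residual feed intake is the gap between what an animal eats and what its growth and upkeep predict, and a pig with low RFI eats less than predicted for the same gain. The series concerns selection on this measure. Longissimus of the pig is a mainly fast, glycolytic muscle, whose proteins are made and broken down at a cost in energy.

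The 60-base probes behind the clearest differences show what was measured. CD40 is a receptor of the tumour necrosis factor family on antigen-presenting cells, and the probe with the smallest p of all is shown first. OAZ3 is an antizyme, a protein that binds ornithine decarboxylase and blocks polyamine synthesis, and its 2 probes are shown because they gave very different sizes of change. CSRNP3, a nuclear protein rich in cysteine and serine, was known from the description column only. The last pair comes from 1 cDNA record without a gene name. No letter is marked in these probes, since the whole probe is the measured item.
CD40, probe A_72_P544217: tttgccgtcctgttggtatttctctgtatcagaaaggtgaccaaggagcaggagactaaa
OAZ3, probe A_72_P437459: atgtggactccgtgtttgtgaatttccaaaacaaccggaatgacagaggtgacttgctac
OAZ3, probe A_72_P619999: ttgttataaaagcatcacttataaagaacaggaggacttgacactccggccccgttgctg
CSRNP3, probe A_72_P273444: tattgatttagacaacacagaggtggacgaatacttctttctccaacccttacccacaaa
Unnamed cDNA, probe A_72_P530944: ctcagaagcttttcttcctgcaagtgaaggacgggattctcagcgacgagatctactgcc
Unnamed cDNA, probe A_72_P368153: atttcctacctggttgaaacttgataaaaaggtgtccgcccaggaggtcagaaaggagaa

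Levels are log2 signal minus the 75th percentile of the array, so a level of 0 is at that percentile and levels of different probes are not compared. Differences are low-RFI minus high-RFI on this log2 scale, with limma's standard error (SE), and a probe passed at a limma p of under 0.05 after Benjamini-Hochberg adjustment over all tested probes. A probe is well above background where the scanner software called it so. Between 41.7% and 79.0% of probes were well above background in the low-RFI arrays and between 54.5% and 77.4% in the high-RFI arrays. The lowest share belonged to low-RFI replicate 7, on slide 3. All 3 groups lay on each of the 6 slides. Every array stands for a separate pig, but the labels do not say whether pigs shared a litter or pen. The pigs replicate each line and not the selection, so RFI and any other difference between the lines cannot be told apart.

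Of 27788 probes tested, 34 passed, which is 0.122%. Of these, 22 were lower in low-RFI pigs (0.0792%) and 12 were higher (0.0432%). The lower probes had the larger changes, since 16 of them fell by at least 1 log2 unit and 2 of the higher ones rose by that much. The groups did not overlap in 19 of the 34, against 98 of all tested probes (0.353%). The signs were the same on both scan days for all 34 and on all 6 slides for 29. The 34 were chosen on these same arrays, which favours such agreement. When slide was added as a block, 18 of the 34 still passed and 19 probes passed in all. The count was 22 without low-RFI replicate 5 or without high-RFI replicate 2, and 18 without the arrays of slide 3. With values corrected on the negative control spots the split was 15 higher to 16 lower, and in the deposited values it was 4 higher to 16 lower. Under the planned normexp correction (modelled background on mean signals) 0 probes passed.

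Below the threshold the balance ran the other way. An unadjusted p under 0.05 was found for 3087 probes (11.1%), 1999 of them higher in low-RFI pigs and 1088 lower. With quantile normalization these were 1708 and 1353. Of the 98 probes without overlap 70 were higher (0.252%) and 28 lower (0.101%), but the median size was 0.35 for the higher and 0.86 for the lower. Ribosomal protein genes of the cytosol supplied 18 of those 70 probes, out of 214 tested for such genes. The 18 came from 5 genes that include RPLP0 and RPL6, so several read the same gene. The median difference over all tested probes was 0.02.

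**Figure D1:**
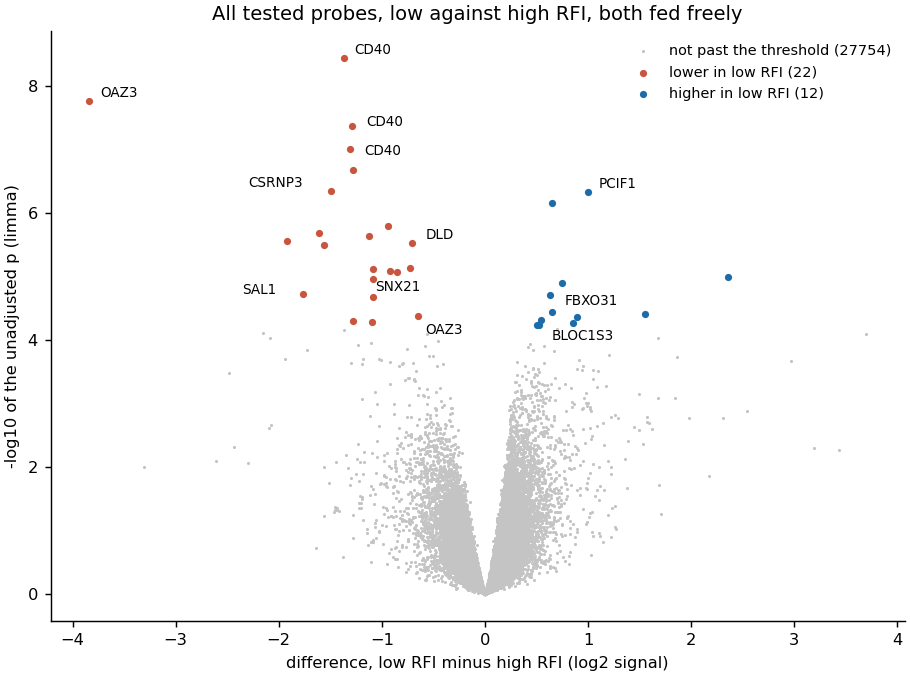
Difference of each tested probe (x axis, log2 signal, low-RFI minus high-RFI) against the -log10 of its unadjusted limma p (y axis); each point is 1 probe, and the 34 that passed are coloured by direction. Of the 22 probes that fell 16 lie at least 1 log2 unit from 0, against 2 of the 12 that rose.

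CD40 fell in low-RFI muscle on all 3 of its probes. On the probe shown above, the low-RFI levels ran from -3.22 to -2.31 with a median of -2.76. The high-RFI levels ran from -1.63 to -1.13 with a median of -1.46. Every low-RFI pig lay below every high-RFI pig. The difference was -1.37 (SE 0.15, limma adjusted p 0.0001, n = 7 and 8), a 2.59-fold lower signal, and 6 of the 7 low-RFI arrays were well above background. The other CD40 probes gave -1.29 (SE 0.16) and -1.31 (SE 0.17), also without overlap, and start at bases 1155 and 1198 of their transcript records, against base 615 for the first. On the 2 scan days the first probe differed by -1.35 and -1.42, and with slide as a block it stood at -1.42. The restricted high-RFI pigs averaged -1.51 ± 0.37 (SD, n = 8) on it.

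CD40 is best known from B cells and macrophages, and markers of these cells were set beside it. Of 10 B-cell and plasma-cell markers 1 could be tested, the B-cell factor PAX5 at 0.01 (SE 0.13). The single probe of CD79A, a part of the B-cell receptor, was well above background on 1 of the 15 arrays. Of 18 leukocyte and macrophage markers 11 were tested. Of these, 9 were lower and 2 higher, with a median of -0.19, and none passed in limma, while 1 had an unadjusted p under 0.05, S100A8 at -1.19 (SE 0.52, limma adjusted p 0.392). Their mean level per pig ran from -2.38 to -1.61 in the low line and from -2.11 to -1.12 in the high line. The part of these cells in the CD40 difference was not tested. Around the receptor, the list of CD40 and tumour necrosis factor receptor signalling had 13 measured genes, 9 higher and 4 lower, with a median of 0.03. CD40 alone passed in that list. The adaptor TRAF3 stood at 0.47 (SE 0.16, limma adjusted p 0.264) on its brightest probe but ran from -0.12 to 0.47 over 3 probes. TNFRSF1A, the receptor of tumour necrosis factor, was at 0.19 (SE 0.08) and ran from -0.21 to 0.19 over its 3.

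OAZ3 fell on both of its probes. The probe at base 451 of the transcript record was not well above background on any of the 7 low-RFI arrays and was so on all 8 high-RFI arrays. It was the single probe of the array with such a pattern between these groups (6 or more arrays of one line and none of the other). For the fold, the low group was taken at the lowest signal well above background on each array, or at its own signal if that was higher. The low-RFI signal was then 9.91-fold lower. Low-RFI replicates 3, 6 and 7 were at -5.61, -5.76 and -2.34. Each lay above its array's lowest such signal (-6.07, -6.33 and -2.37), yet none was called well above background. The fold is therefore not a strict lower limit. The limma adjusted p of 0.000235 belongs to the measured difference of -3.84 (SE 0.45). The measured means were -5.54 and -1.70. The low-RFI levels ran from -6.63 to -2.34 with a median of -6.06, and the high-RFI levels from -2.48 to -1.06 with a median of -1.53. The groups overlapped through low-RFI replicate 7 alone, at -2.34, on the array where the lowest signal well above background was -2.37.

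The second OAZ3 probe, at base 88, changed far less. Low-RFI levels ran from -3.12 to -2.69 and high-RFI levels from -2.54 to -2.06, again without overlap. The difference was -0.65 (SE 0.13, limma adjusted p 0.0424), a 1.57-fold lower signal, with 6 of 7 low-RFI arrays well above background. With slide as a block it was -0.63 (limma adjusted p 0.0851). Why the 2 probes differ was not tested. Polyamine metabolism as a whole was split: of 9 measured genes, OAZ3 included, 5 were higher and 4 lower, with a median of 0.00. SAT1, which acetylates spermidine and spermine, was at -0.28 (SE 0.13, limma adjusted p 0.442). ODC1, the decarboxylase that antizymes bind, was at -0.20 (SE 0.14, limma adjusted p 0.648). OAZ1, the common antizyme, was at 0.07 (SE 0.10).

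Another 5 probes that passed are named by the description column and carry no symbol of their own. CSRNP3 fell: its low-RFI levels ran from -4.15 to -2.97 with a median of -3.40, and its high-RFI levels from -2.73 to -1.49 with a median of -1.88. The groups did not overlap, and 5 of 7 low-RFI arrays and all 8 high-RFI arrays were well above background. The difference was -1.49 (SE 0.21, limma adjusted p 0.00183). It was -1.73 on scan day 1 and -1.20 on scan day 2. The restricted pigs lay between, at -2.99 ± 0.45 (SD, n = 8).

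PCIF1, which binds the phosphorylated tail of RNA polymerase II and methylates the base next to the mRNA cap, rose. Its low-RFI levels ran from 2.08 to 2.81 and its high-RFI levels from 1.22 to 1.71, with medians of 2.60 and 1.56 and no overlap. The difference was 0.996 (SE 0.14, limma adjusted p 0.00183). A second PCIF1 probe, which shares a record with the first, stood at 0.68 (SE 0.16, limma adjusted p 0.118). The last of its 3 probes stood at 0.16 (SE 0.18, limma adjusted p 0.810).

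SNX21, a sorting nexin of endosomal membranes, fell by 0.86 (SE 0.15, limma adjusted p 0.0129). Its low-RFI levels had a median of -0.21 and its high-RFI levels one of 0.73. The groups overlapped, since the highest low-RFI pig was at 0.47 and the lowest high-RFI pig at 0.35. A second SNX21 probe stood at -0.13 (SE 0.10, limma adjusted p 0.688), so 1 of 2 probes passed. With median centring the first stood at -0.83 and no longer passed. In the Sscrofa11.1 annotation, SNX21, PCIF1 and CD40 follow each other on the same chromosome, with 7 protein-coding genes between SNX21 and PCIF1 and 4 between PCIF1 and CD40. Of these neighbours 2 fell and 1 rose.

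FBXO31, the substrate-binding subunit of a ubiquitin ligase, rose by 0.65 (SE 0.13, limma adjusted p 0.0403), with medians of -0.57 and -1.25 and the ranges just overlapping. On scan days 1 and 2 it differed by 0.89 and 0.37. BLOC1S3, a subunit of a complex that builds lysosome-related organelles, rose by 0.51 (SE 0.10, limma adjusted p 0.0481). Its medians were 1.90 and 1.38, and another BLOC1S3 probe stood at 0.12 (SE 0.11, limma adjusted p 0.770). An unnamed probe rose by 0.53 (SE 0.11, limma adjusted p 0.0481) beside it. The pair share a run of 33 bases and so may read the same RNA; the first 30 are shown to mark that they are not independent.
Run shared by probes A_72_P281539 and A_72_P033766: GGGGAGACAGACATGAATGGAATGTTCTCC
All of these last 3 calls were lost with slide as a block, at 0.68 (limma adjusted p 0.0599) for FBXO31, 0.51 (0.0851) for BLOC1S3 and 0.52 (0.0851) for the unnamed probe.

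DLD, the dihydrolipoamide dehydrogenase shared by the pyruvate, 2-oxoglutarate and branched-chain dehydrogenase complexes, was lower on all 9 of its probes and passed on 1. On that probe, low-RFI levels ran from 1.60 to 2.47 and high-RFI levels from 2.56 to 2.997, with medians of 1.95 and 2.66. The groups did not overlap, and the difference was -0.71 (SE 0.12, limma adjusted p 0.0063). With median centring it was -0.69 and no longer passed. All 9 probes were lower in low-RFI pigs, between -0.71 and -0.10, and 8 had an unadjusted p under 0.05. A second probe without overlap stood at -0.45 (SE 0.10, limma adjusted p 0.0697). By position in the transcript record, the differences were -0.10 at base 229, -0.23 at base 529, -0.45 at base 916 and -0.71 at base 1685, and the 5 probes from base 1958 onward lay between -0.34 and -0.29. Among 10 measured genes of these complexes and their kinases 4 were higher and 6 lower, and none passed on its brightest probe. BCKDHB, a subunit of the branched-chain complex, was at 0.34 (SE 0.11, limma adjusted p 0.228) on that probe and between 0.34 and 0.39 on all 4.

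SAL1, a salivary lipocalin that carries small odorous molecules, fell, with medians of -3.26 in the low line and -1.94 in the high line. Its low-RFI levels ran from -4.98 to -3.11 and its high-RFI levels from -2.65 to -0.22. The groups did not overlap, 5 of 7 low-RFI arrays were well above background, and the difference was -1.76 (SE 0.33, limma adjusted p 0.0239). It was -2.41 on scan day 1 and -1.03 on scan day 2, and with slide as a block the call was lost (-1.64, limma adjusted p 0.0844). The second SAL1 probe gave -2.16 (SE 0.45, limma adjusted p 0.0566). It could be told from background on 2 low-RFI arrays and 5 high-RFI arrays. Of 8 listed markers of skin or salivary gland, SAL1 included, only 3 could be tested. The others tested were KRT8 at -0.08 (SE 0.33) and EPCAM at 0.18 (SE 0.40). The part of such tissue in the SAL1 difference was not tested.

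**Figure D2:**
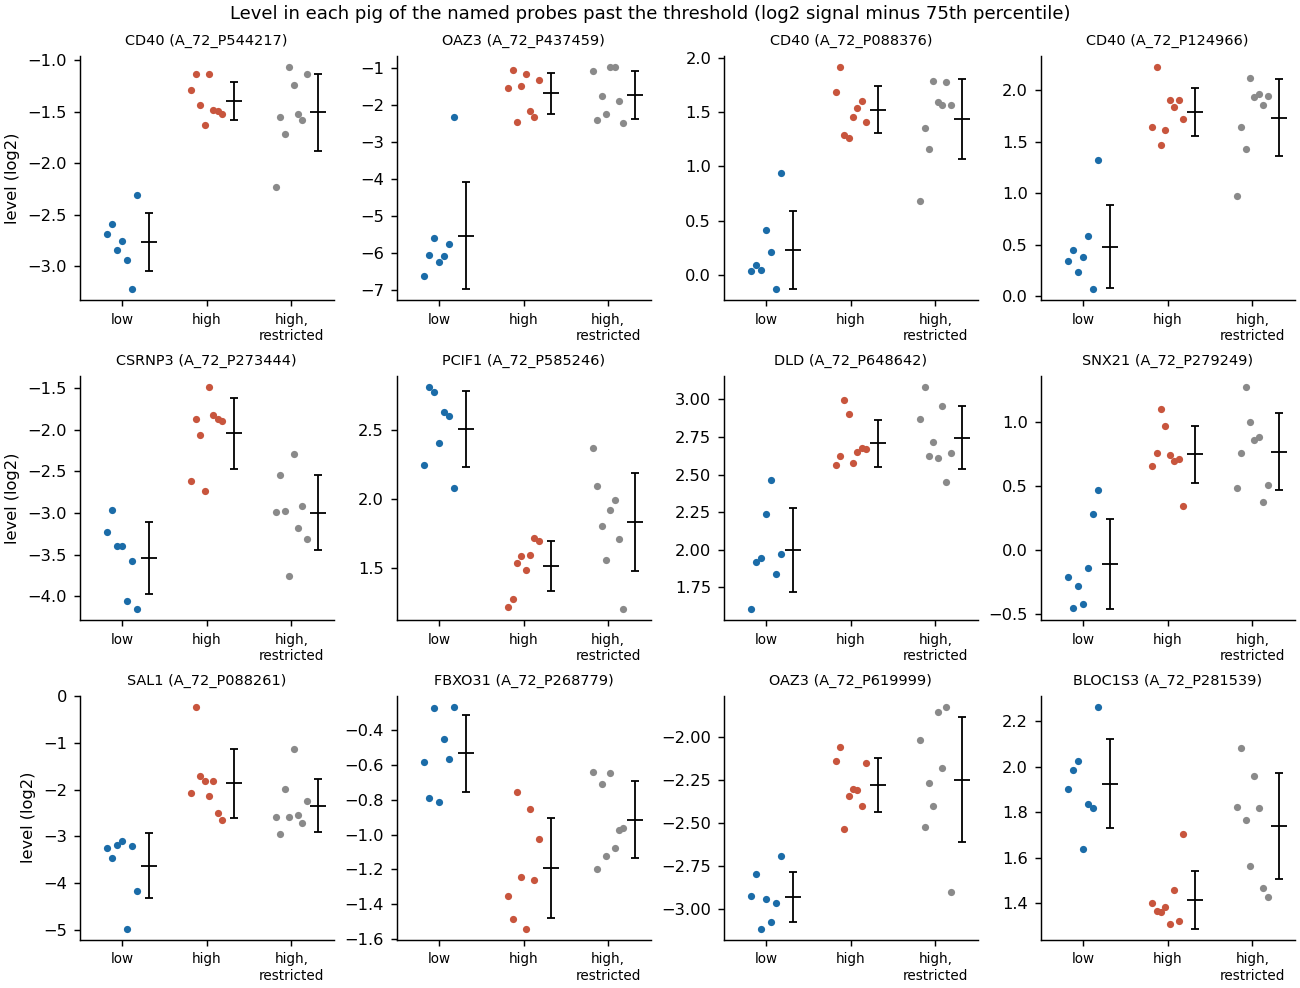
Level of each named probe that passed, 1 panel a probe (y axis, log2 signal scaled to the array's 75th percentile; each panel has its own range); each point is 1 pig, and the black bar is the group mean with its SD. Low-RFI pigs stand apart from free-fed high-RFI pigs in most panels, and the 1 low-RFI pig near the high-RFI level for OAZ3 is replicate 7; the restricted pigs (grey) are shown for description.

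Of the 34 probes 21 have no gene name, 12 lower and 9 higher, so most of what passed is not tied to a gene here. For 7 probes the file says Unknown, and several others quote a faint likeness to a protein of another organism or only a cDNA clone. A few are described because of their size or sequence; they were chosen after their values were seen. A probe to a back-fat cDNA clone fell by 1.28 (SE 0.18, limma adjusted p 0.00117). Its low-RFI levels ran from -0.29 to 0.24 and its high-RFI levels from 0.94 to 2.28, without overlap. The files tie it to a record shared with 3 probes described as S100A10, a member of the S100 family found at cell membranes, which stood between -0.56 and -0.49 (limma adjusted p between 0.205 and 0.234). Its first part also holds a run found in other probes, of which the longest is 22 bases, shown in capitals in a window of 30.
Back-fat clone, probe A_72_P244152: tTGGTGTACACCTGAAACTAACAcagcatt
Probe A_72_P395793: actgTGGTGTACACCTGAAACTAACAtgac
The probe in the second line was at -0.19 (SE 0.20, limma adjusted p 0.802), and 2 further tested probes with a like run were at -0.08 and 0.10. None of these 3 passed.

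Both probes of the unnamed cDNA shown at the start fell. The first had low-RFI levels from -2.67 to -1.77 and high-RFI levels from -1.61 to -0.61, without overlap, and differed by -0.94 (SE 0.15, limma adjusted p 0.00499). The second gave -1.08 (SE 0.20, limma adjusted p 0.0242), also without overlap. Both differed more on scan day 1, at -1.25 and -1.55, than on scan day 2, at -0.58 and -0.51. The largest rise among the 34 came from an unnamed cDNA of low signal, at 2.35 (SE 0.42, limma adjusted p 0.0149), and was detected on 6 of the 7 low-RFI arrays but 3 of the 8 high-RFI arrays. Its probe met the filter of 6 arrays in 1 group through the low-RFI group alone, so the filter itself favours a rise. Another unnamed probe rose by 0.54 (SE 0.11, limma adjusted p 0.046), with medians of 6.57 in the low line and 5.88 in the high line.

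Among genes just short of the threshold, the 10 with the smallest p and a higher level in low-RFI pigs held 3 ribosomal proteins. RPL6 stood at 0.44 (SE 0.09, limma adjusted p 0.0717) on its best probe, RPLP0 at 0.31 (SE 0.07, limma adjusted p 0.0946) and RPL14 at 0.47 (SE 0.11, limma adjusted p 0.101). Their other probes gave the same sign throughout, 13 of 13 for RPL6 (0.19 to 0.52), 13 of 13 for RPLP0 (0.25 to 0.36) and 6 of 6 for RPL14 (0.39 to 0.52). MAPK12, a p38 stress-activated kinase abundant in muscle, was at 0.57 (SE 0.12, limma adjusted p 0.074), with medians of 4.80 and 4.05. It differed by 0.83 on scan day 1 and 0.28 on scan day 2. CAPN2, a calcium-activated protease, was at 0.47 (SE 0.11, limma adjusted p 0.1003). PSMG4, a chaperone of proteasome assembly, was at 0.36 (SE 0.09, limma adjusted p 0.113) without overlap between the groups, and its second probe at 0.35. SNX5, another sorting nexin, was at 0.52 (SE 0.12, limma adjusted p 0.104), but its 7 probes ran from -0.14 to 0.52. The remaining genes were LGI3 at 1.05 (SE 0.25), a secreted leucine-rich protein well above background on 6 and 5 arrays, PCIF1 through its second probe, and EDC3, an enhancer of mRNA decapping, at 0.44 (SE 0.11). None of the 10 passed, and their limma adjusted p ran from 0.0717 to 0.121.

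The 10 on the lower side included the second probes of SAL1 and DLD described above. MTHFD1, a folate enzyme with 3 activities, was at -1.11 (SE 0.24, limma adjusted p 0.0717): low-RFI levels ran from 2.73 to 4.31 and high-RFI levels from 3.54 to 4.82, with medians of 3.04 and 4.55. Its other probe with a symbol stood at -0.63 (SE 0.21). Another probe, tied to MTHFD1 by the description alone, stood at -2.08 (SE 0.44, limma adjusted p 0.0634), with 3 of 7 low-RFI arrays and all 8 high-RFI arrays well above background. VEGFA, the growth factor of blood vessels, was at -0.67 (SE 0.16, limma adjusted p 0.104), and its 3 probes lay between -0.69 and -0.54. COQ5, a methyltransferase of coenzyme Q synthesis, was at -0.47 (SE 0.11, limma adjusted p 0.0957). ITPR1, a calcium release channel of the endoplasmic reticulum, was at -0.74 (SE 0.18, limma adjusted p 0.118).

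For other genes of this lower set the probes did not give 1 picture. UAP1, which makes the sugar donor UDP-N-acetylglucosamine, was at -0.80 (SE 0.18, limma adjusted p 0.0946) on 1 probe, without overlap, while its other 7 probes lay between -0.19 and -0.08. WDHD1, a DNA replication factor, was at -1.03 (SE 0.23, limma adjusted p 0.0942) on 1 probe and at 0.44 (SE 0.16) on the other. C16H5orf42 had a single probe, at -0.58 (SE 0.13, limma adjusted p 0.074). NUF2, a kinetochore protein of dividing cells, was at -2.49 (SE 0.59, limma adjusted p 0.107). Its low-RFI levels stayed between -3.41 and -2.71, whereas its high-RFI levels ran from -3.13 to 0.94 with a median of 0.31, so the high-RFI pigs were spread over both ends and the difference rests on part of them. The restricted pigs averaged -2.61.

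**Figure D3:**
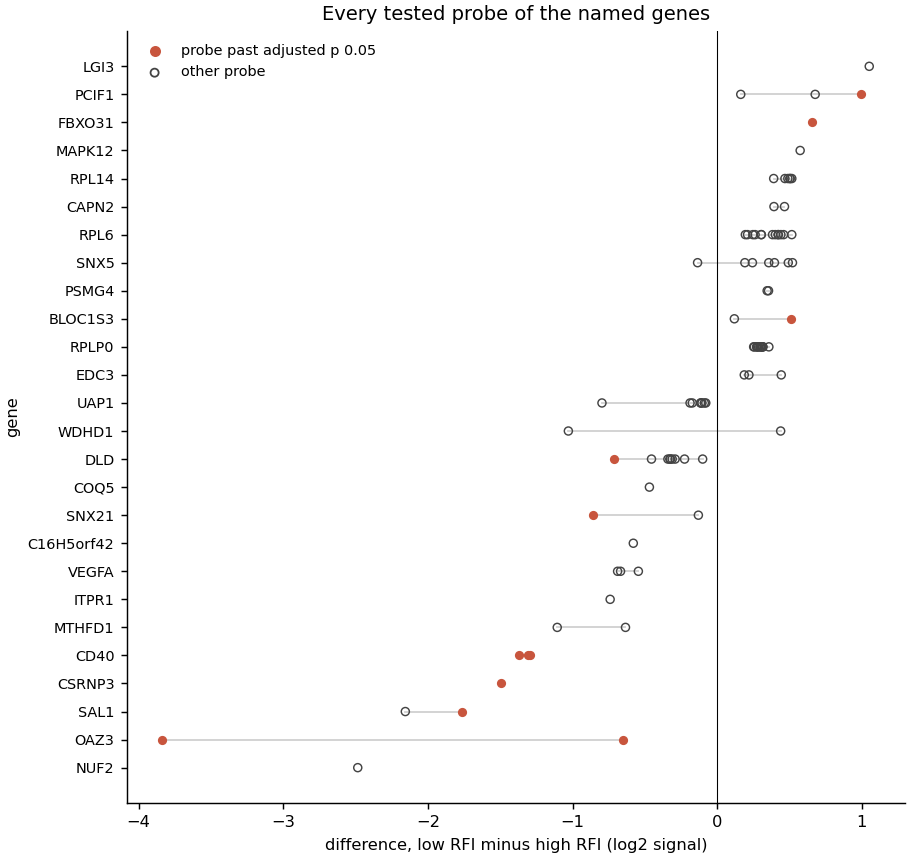
Difference of every tested probe of the named genes (x axis, log2 signal, low-RFI minus high-RFI; y axis, gene, ordered by the median); each point is 1 probe, filled where it passed. The 3 CD40 probes lie together and the 13 probes each of RPL6 and RPLP0 are all above 0, while OAZ3, PCIF1, SNX21, UAP1 and WDHD1 have probes far apart.

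In all, 75 probes had a limma adjusted p under 0.1. Among those without a symbol whose description names a product, the neurensin-1-like record was at -1.93 (SE 0.44, limma adjusted p 0.0942), with 5 of 7 low-RFI arrays well above background. Subunit f of mitochondrial ATP synthase was at -0.50 (SE 0.11, limma adjusted p 0.0908) without overlap, from 0.75 to 1.09 in the low line and from 1.16 to 1.93 in the high line. CMTM6, a membrane protein of the MARVEL family, was at -0.54 (SE 0.12, limma adjusted p 0.0903). SLC1A3, a glutamate transporter, was at -0.83 (SE 0.19, limma adjusted p 0.0957), with -1.33 on scan day 1 and -0.23 on scan day 2. On the higher side stood the record of an open reading frame at 2.97 (SE 0.68, limma adjusted p 0.0946), with 6 low-RFI and 4 high-RFI arrays well above background. That record too met the filter through the low-RFI group alone. Beside it were the synaptonemal complex protein SYCP2 at 0.91 (SE 0.21) and serine incorporator 2 at 0.57 (SE 0.13). These were chosen after their values were seen, and none passed.

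Gene lists are described on each gene's brightest tested probe, beside all 4294 genes so measured, of which 2425 were higher and 1869 lower in low-RFI pigs, with a median of 0.03. Over these genes 342 were higher (7.96%) and 190 lower (4.42%) at an unadjusted p under 0.05, and 3 genes passed (0.0699%). These were CD40, OAZ3 and SAL1, so 0 genes of the other lists passed in limma. The counts that follow for single genes are at an unadjusted p.

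Genes of cytosolic protein synthesis were followed in several lists. All 39 measured cytosolic ribosomal protein genes were higher, 31 of them at an unadjusted p under 0.05, with a median of 0.21 and a positive median on each of the 6 slides. At the level of probes 212 of 214 were higher, against 15376 of all 27788 tested probes. Many of the 214 share a gene, so they are not separate results. Their mean level per pig ran from 7.78 to 8.01 in the low line and from 7.44 to 7.82 in the high line. The median was 0.11 with quantile normalization and -0.03 under the planned normexp correction (modelled background on mean signals). With normexp on the negative control spots it was 0.19, so its direction depends on which background correction is used. The planned correction had a background SD over 100 on 5 arrays. RPL14 was at 0.50 on its brightest probe (limma adjusted p 0.146) and RPLP0 at 0.28 (limma adjusted p 0.176). Translation factors were higher in 10 of 12 (median 0.14, and -0.03 under planned normexp), with EIF2S2 at 0.26, the elongation factor EEF1A1 at 0.50 and EIF2B5 at 0.22. Mitochondrial ribosomal proteins were higher in 8 of 12, with a median of 0.02 (-0.13 under planned normexp). Brakes on translation were higher in 6 of 9 (median 0.20), with EEF2K at 0.52 and PDCD4 at 0.24. Their median was 0.33 on scan day 1 and 0.08 on scan day 2.

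Oxidative enzymes lay below and glycolytic enzymes above that median. Of 11 genes of the tricarboxylic acid cycle 10 were lower (median -0.09), with the cytosolic malate dehydrogenase MDH1 of that list at -0.41 and the succinate dehydrogenase subunit SDHD at -0.27, both at an unadjusted p under 0.05. Respiratory complex I was lower in 8 of 10 (median -0.12), with NDUFS6 at -0.24 and NDUFB9 at -0.33. Complexes III and IV were lower in 7 of 9 (median -0.14), with cytochrome c, CYCS, at -0.36, although the 12 probes of CYCS ran from -0.40 to 0.54. Glycolysis was higher in 10 of 13 (median 0.14), with ENO3 at 0.30, PGAM2 at 0.29 and PGAM1 at 0.46. The probes of PGAM1 were of opposite sign, -0.36 and 0.46. Fast fibre contractile genes were higher in 12 of 13 (median 0.15), and slow fibre genes in 3 of 13 (median -0.07). The slow fibre median was 0.02 on scan day 1 and -0.14 on scan day 2, and it was -0.14 with quantile normalization and -0.29 under planned normexp. Quantile normalization took the glycolytic median to 0.03 and the fast fibre median to 0.01, and planned normexp took them to 0.00 and -0.09. The same settings moved the oxidative medians further down, to -0.18 and -0.33 for the tricarboxylic acid cycle, -0.18 and -0.36 for complex I, and -0.23 and -0.36 for complexes III and IV.

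Most fat genes lay lower. Lipid synthesis was lower in 10 of 16 (median -0.14): the desaturase SCD was at -1.45 (SE 0.68), the lipogenic enzyme ACLY at -0.61 (SE 0.26) and ME1 at -0.57 (SE 0.21), and these had limma adjusted p from 0.298 to 0.433. LPIN1 in the same list was at 0.37 (SE 0.16). All 9 measured adipocyte markers were lower, with a median of -0.53, and 2 had an unadjusted p under 0.05, LIPE at -0.72 (SE 0.26) and CEBPA at -0.87 (SE 0.42). The mean level of the 9 per pig ran from -0.02 to 1.43 in the low line and from -0.18 to 2.46 in the high line, so the groups overlapped widely. The part of adipocytes in the lipid gene differences was not tested.

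Stress and immune genes differed in how steady they were. Heat shock proteins were lower in 10 of 12 (median -0.24), with HSP90AA1 at -0.41 (SE 0.13, limma adjusted p 0.227), HSPD1 at -0.27 and HSPH1 at -1.10. Immediate early genes were lower in 9 of 10 (median -0.31), but their median was -0.77 on scan day 1 and 0.33 on scan day 2. Glucocorticoid-induced genes were lower in 7 of 9, with -0.02 and -0.46 on the 2 days, and FKBP5 at -1.21 (SE 0.42, limma adjusted p 0.273). Genes of MHC class I presentation were lower in 11 of 14 (median -0.18) and had a negative median on 6 of 6 slides. Among them SLA-5 was at -0.62 (SE 0.19), SLA-8 at -0.39 (SE 0.13) and SLA-2 at -0.65 (SE 0.23), but these genes are near copies whose probes may read each other. Interferon-stimulated genes were higher in 13 of 23 (median 0.03). Extracellular matrix genes were lower in 15 of 23 (median -0.09), led by fibronectin, FN1, at -0.69 (SE 0.17, limma adjusted p 0.118) and fibrillin, FBN1, at -0.60 (SE 0.15, limma adjusted p 0.143).

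**Figure D4:**
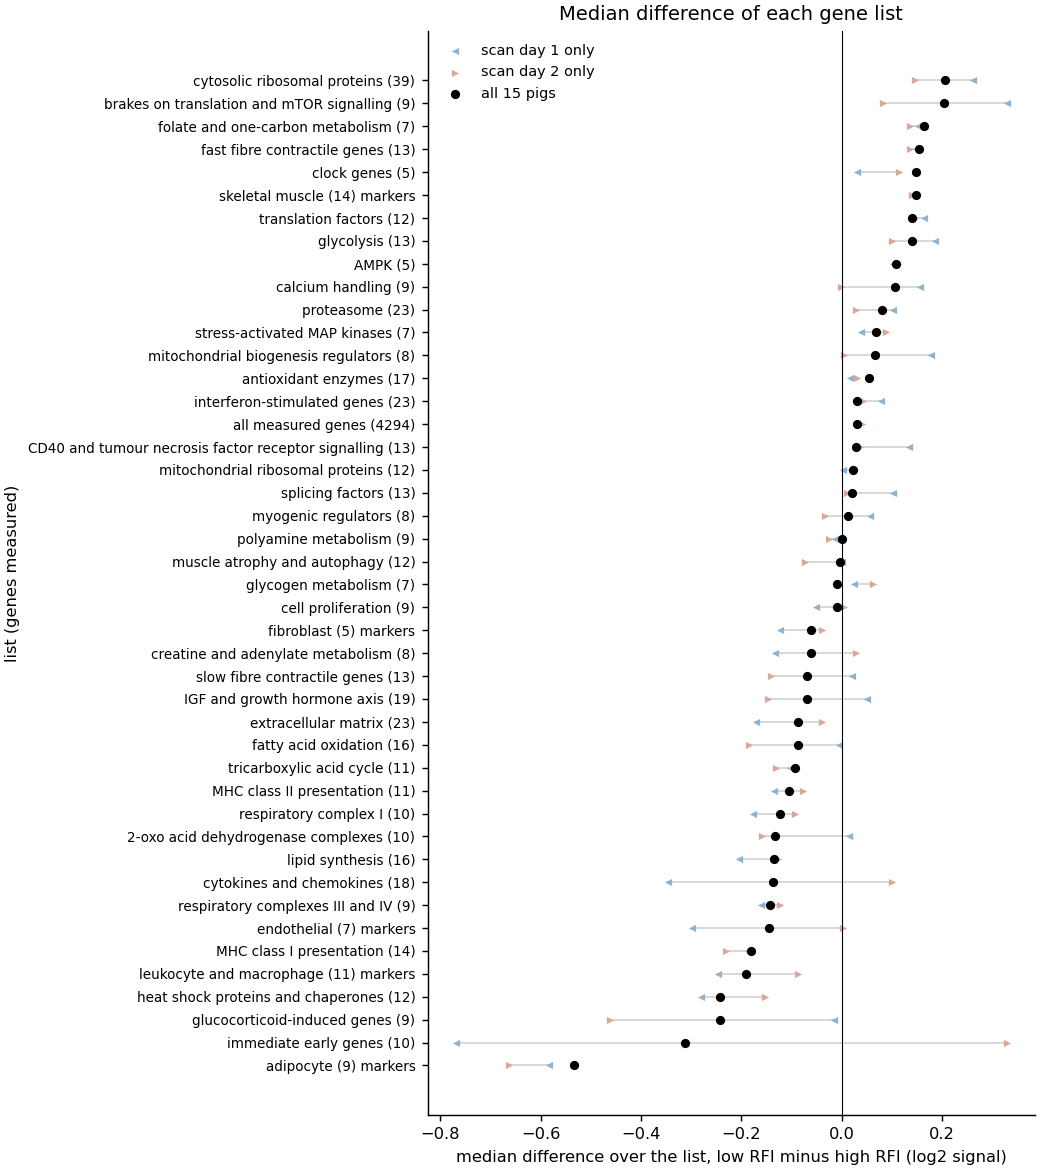
Median difference of each gene list with at least 5 measured genes (x axis, log2 signal, low-RFI minus high-RFI; y axis, list with its number of measured genes); black points are all 15 pigs and triangles the 2 scan days apart. The cytosolic ribosomal proteins at 0.21 (-0.03 under planned normexp) and the brakes on translation at 0.20 lie at the upper end and the adipocyte markers at -0.53 at the lower, and the immediate early genes lie on both sides of 0 on the 2 days.

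The tissue label was checked on 14 measured of 16 skeletal muscle markers. All 14 were well above background on every one of the 15 arrays. Of these markers 13 were higher in low-RFI pigs, with a median of 0.15, which quantile normalization took to 0.01 and planned normexp to -0.11. Of 7 endothelial markers 5 were lower (median -0.14), of 5 fibroblast markers 3 were lower (median -0.06), of 4 smooth muscle markers 2 (median -0.10) and of 4 nerve markers 3 (median -0.21). Planned normexp turned the medians of the fibroblast (0.05), smooth muscle (0.02) and nerve (0.17) markers positive. On scan day 2 the smooth muscle median was 0.01. The endothelial median was -0.30 on scan day 1 and 0.003 on scan day 2. All 3 measured satellite cell markers were higher (median 0.03), but their median was 0.34 on scan day 1 and -0.13 on scan day 2, and 0 of 6 erythrocyte markers could be tested.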

How the data were processed

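RNA of 23 pigs was measured on 1 single-colour Agilent array each. The deposited processed spot intensity was background-subtracted and detrended by Feature Extraction 10.7.3.1, per the file headers, with no scaling between arrays; the mean and local background intensity columns, deposited per the file headers, served the normexp alternatives alone. The deposited log2 value table of the authors held 26410 probes and equalled the log2 processed signal minus 1 constant per array, so it was an alternative; how its probes were chosen is not stated. The submitters' processing notes name R 2.10.0.

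Control spots were left out, log2 signals were reduced by the array's 75th percentile, non-uniform and population-outlier spots were set to missing (470 values) and spots of a probe were averaged. Of 43603 probes, 27788 were kept, those called well above background in 6 or more arrays of any group, and fitted over all 3 groups with limma 3.58.1 in R 4.3.3. The estimate of the spread comes from all 23 arrays. The number of arrays limits the precision. Symbols came from accessions, gene IDs and symbols of the files (12168 probes), and from the description column where it named a product; the files give no genome position.

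The members and lists were chosen with earlier results of these data known. Named were every probe past adjusted p 0.05 that has a name, the 10 other genes of smallest p in each direction, up to 3 genes of a list, the other probes of these genes, and probes seen in 1 line alone; others were chosen after their values were seen. Where names disagreed none was used. Some members are not reported here. In simulated data on 27329 probes for this comparison, 71 of 100 changes of 1 log2 unit, 44 of 100 of 0.5 and 7 of 27129 unchanged probes were called. The file headers gave slide and scan day. The labels do not say whether replicate numbers pair pigs, and the main fit did not use them as pairs. Alternatives covered scaling (median, quantile), normexp background with offset 50 on the local background (planned) or on 153 negative controls, filters, outlier spots, variance models, array weights, slide, scan day and replicate blocks, 2 groups only, and leaving out each pig or slide 3.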

Additional observations from a re-analysis of the deposited data

Results flagged for a closer look

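Of 108 groups of pigs looked at for the probes named or past the threshold, 10 had 1 pig far from the rest by Dixon's gap ratio (the gap to the nearest pig over the group's whole range), where chance flags about 1 group in 20. Low-RFI replicate 7 gave 3 of them: highest for OAZ3 probe A_72_P437459 (ratio 0.761, level -2.34 against a group median of -6.06), highest for CD40 probe A_72_P124966 (0.59, level 1.32 against 0.38), and lowest for ITPR1 (0.608, level -4.58 against -3.78). High-RFI replicate 2 gave another 3 as the highest pig: the back-fat clone probe A_72_P244152 (0.711, level 2.28 against 1.18), an unnamed probe (0.542, level -0.25 against -1.37) and SAL1 (0.612, level -0.22 against -1.94). High-RFI replicate 6 was highest for the unnamed cDNA probe A_72_P368153 (0.633, level -1.38 against -2.10). High-RFI replicate 8 was highest for BLOC1S3 (0.618, level 1.70 against 1.38). Low-RFI replicate 4 was lowest for MAPK12 (0.572, level 4.03 against 4.80), and high-RFI replicate 1 was lowest for MTHFD1 (0.676, level 3.54 against 4.55). Low-RFI replicate 7 is the array with the lowest share of probes well above background, 41.7%.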

How the results depend on the processing

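Of the 34 probes that passed, 21 passed in each of the 15 fits that left out 1 pig and 9 passed under each alternative that gave them a value (28 to 30 besides the planned normexp correction, under which they did not pass); these include CD40, CSRNP3, PCIF1 and the low-signal OAZ3 probe. The number of probes past the threshold was 23 with median centring (6 higher and 17 lower), 20 in the deposited values, which hold 29 of the 34 probes, 22 with no filter on dim probes, 18 for probes well above background on every array, which hold 17 of the 34, 52 with trend and robust variance, 107 with array weights, 19 with slide as a fixed block, 18 without slide 3 and 14 at a threshold of 0.01. It ranged from 22 to 40 when 1 pig was left out. The planned normexp correction left 0 probes, with 399 at an unadjusted p under 0.05, and turned the unnamed probe A_72_P293129 to 0.0169; its background SD was over 100 on 5 arrays. With the replicate block the count was 28, of which 24 were among the 34. The correlation of same-numbered pigs ran from -0.27 to 0.27. Weak correlations of both signs do not settle whether the number marks pairs. The replicate block ended the calls of SAL1 (limma adjusted p 0.0804), the second OAZ3 probe (0.0761) and BLOC1S3 (0.163). Of the 20 probes just short of the threshold 16 passed under at least 1 alternative, most often with array weights, and 0 reversed. Of 1248 values of list medians under alternatives 16 moved by more than the spread between pigs, 11 of them under the planned normexp correction. Signals near background limit the dim probes: 14 of the 22 lower calls had fewer than 7 low-RFI arrays well above background.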
